A study of Mus musculus with 22 samples.

Results

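A set of microglia marker genes was followed through RNA from the CA1 region of the mouse hippocampus, in messenger RNA pulled down with tagged neuronal ribosomes and in the RNA left behind. The 8 genes were C1qa, C1qb, C1qc, Csf1r, Cx3cr1, Ctss, P2ry12 and Tyrobp. They were chosen by symbol as genes known to mark microglia, not by their values here, and they are 8 of the 29848 genes listed in the deposited tables. Every gene of the 8 had a row in both tables.

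All libraries came from mice labelled as Camk2a-tTA/tetO-EGFP-L10a double transgenics on C57BL/6. In such mice the Camk2a promoter drives a transactivator that switches on a ribosomal protein fused to a green fluorescent protein. Camk2a is a gene of excitatory neurons, so microglia are not a target of the tag. Tissue was dissected into dendrite and soma pieces of CA1, and tagged ribosomes were captured with the antibody HtzGFP-19C8. The captured RNA is called the immunoprecipitate and the unbound RNA the supernatant.

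The groups differed in fraction, location and behaviour, the behaviour being fear conditioned (FC) or home cage (HC). Dendrite immunoprecipitates numbered 4, with 2 FC and 2 HC libraries, and soma immunoprecipitates numbered 4, with the same split. Supernatants numbered 3: dendrite FC 2, dendrite HC 2 and soma FC 2, where the digit is the replicate. Each of these 11 libraries was sequenced once with paired ends and once with single ends; the runs are technical repeats and were never counted as separate samples. The labels do not say that replicates came from separate animals, so p-values measure only the spread between these libraries, which may be technical. The values are FPKM, fragments per kilobase of transcript and per M mapped fragments, in the part of each transcript that holds the coding sequence.

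Microglia are the resident macrophages of the brain and survey its tissue with motile processes. C1qa, C1qb and C1qc encode the chains of C1q, which starts the classical complement cascade and tags synapses for removal. Csf1r is the growth factor receptor on which microglia depend for survival, Cx3cr1 receives the neuronal chemokine fractalkine, and P2ry12 senses nucleotides released by injured cells. Tyrobp encodes the adaptor DAP12, which signals for Trem2, and Ctss encodes cathepsin S, a lysosomal protease that can also be secreted.

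The C1q genes lie side by side on the minus strand of chromosome 4 of the mm9 build, within 18699 bases between 136436061 and 136454759. C1qb spans chr4:136436061-136442092, C1qc chr4:136445717-136448829 and C1qa chr4:136451831-136454759, each with 3 exons. Ctss lies on the plus strand at chr3:95330708-95360325, with 8 exons, and P2ry12 on the minus strand at chr3:59020193-59066753, with 5 exons. Cx3cr1 lies on the minus strand at chr9:119957811-119977400, with 2 exons, and Tyrobp on the plus strand at chr7:31198807-31202598, with 5 exons. P2ry12 lies within the span of Med12l on the opposite strand, and 0 of its 2403 exon bases are shared with exons of Med12l. The sources used here do not say whether reads were counted by strand, so unspliced Med12l reads over P2ry12 exons cannot be told apart from P2ry12.

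RefSeq promoter entries in build GRCm38.p6 matched 5 of the 8 genes, each reaching from 250 bases before the gene start to 50 bases after it. C1qb, C1qc, Ctss, Cx3cr1 and P2ry12 had an entry; C1qa, Csf1r and Tyrobp did not match. The entries were searched on both strands for AGGAAG, the core of the motif of PU.1, a master regulator of myeloid cells, and for the longer GAGGAAGT, which contains it. These letters were picked after several related strings had been counted. GAGGAAGT stood in 2 of the 5 entries, C1qc and Ctss, and in 3.20% of all 32851 promoters of the table. AGGAAG stood in 4 of the 5, all but Cx3cr1, and in 35.4% of all promoters. The promoters of C1qb (chr4:136886151-136886450, minus strand), C1qc (chr4:136892865-136893164, minus strand) and Ctss (chr3:95526536-95526835, plus strand) are shown because they hold these letters in genes whose levels are described here. They are written 5′ to 3′ along the gene, with every match to either string, on either strand, in capitals.
C1qb: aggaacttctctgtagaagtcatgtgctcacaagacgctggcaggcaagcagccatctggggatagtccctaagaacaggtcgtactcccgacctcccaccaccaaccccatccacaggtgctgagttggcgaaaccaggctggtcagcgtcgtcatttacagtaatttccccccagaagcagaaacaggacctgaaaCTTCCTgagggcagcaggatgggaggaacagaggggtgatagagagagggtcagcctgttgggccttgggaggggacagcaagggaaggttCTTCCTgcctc
C1qc: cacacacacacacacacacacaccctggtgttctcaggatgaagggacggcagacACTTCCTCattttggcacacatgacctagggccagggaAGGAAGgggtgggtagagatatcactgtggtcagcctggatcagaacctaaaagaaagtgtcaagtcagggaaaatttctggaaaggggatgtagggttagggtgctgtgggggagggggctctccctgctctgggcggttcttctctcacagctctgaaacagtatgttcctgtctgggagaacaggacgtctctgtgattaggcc
Ctss: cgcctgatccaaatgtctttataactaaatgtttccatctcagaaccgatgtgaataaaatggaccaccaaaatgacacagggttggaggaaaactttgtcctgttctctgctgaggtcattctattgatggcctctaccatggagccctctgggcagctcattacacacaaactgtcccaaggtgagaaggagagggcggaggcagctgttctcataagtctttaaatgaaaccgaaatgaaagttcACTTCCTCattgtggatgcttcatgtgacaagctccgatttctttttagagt
A match is a description of the letters, and no binding was measured.

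The libraries differed in depth. It was estimated from the spacing of low FPKM values. With paired ends it was 5.69 to 30.0 M fragments in the immunoprecipitates and 24.6 to 35.3 M in the supernatants. With single ends it was 0.515 to 4.36 M reads in the immunoprecipitates and 6.90 to 10.6 M in the supernatants, without overlap. Depth thus went with fraction, and its part in the detection of genes was not tested. The immunoprecipitates had 3220 to 12205 genes above 0 in the paired-end run, against 10344 to 13164 in the supernatants. Camk2a, the gene whose promoter drives the tag, had 63.6 to 706 FPKM in the dendrite immunoprecipitates, against 113 and 184 FPKM in the dendrite supernatants. In the soma it had 2.30 to 109 FPKM in the immunoprecipitates, against 41.3 FPKM in the supernatant, so that Camk2a overlapped between fractions at both locations. A value of 0 is a weak statement here: Hprt, a gene that every cell uses, was listed at 0 in 3 of the 8 immunoprecipitates with paired ends and in 4 with single ends. Hprt was also listed at 0 in the paired-end run of the FC 2 dendrite supernatant, so its zeros were not confined to the immunoprecipitates.

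The 8 genes were most completely detected in the dendrite supernatants, although single immunoprecipitates exceeded them for some genes, such as P2ry12, Ctss and Csf1r in the paired-end table. In the paired-end table all 16 values of the 8 genes in the 2 dendrite supernatants were above 0, and 6 of 8 in the soma supernatant. In the immunoprecipitates 18 of 32 values were above 0 in the dendrite and 10 of 32 in the soma. Of the 64 values in all immunoprecipitates 56.25% were listed at 0, against 28.2% of the values of the 2938 genes with enough expression to be tested. With single ends, 73.4% of the 64 values were listed at 0, against 39.2% for the same tested genes. The tested genes had to reach an expression minimum, which only 4 of the 8 microglia genes passed. Their share at 0 is thus lower partly by selection.

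**Figure D1:**
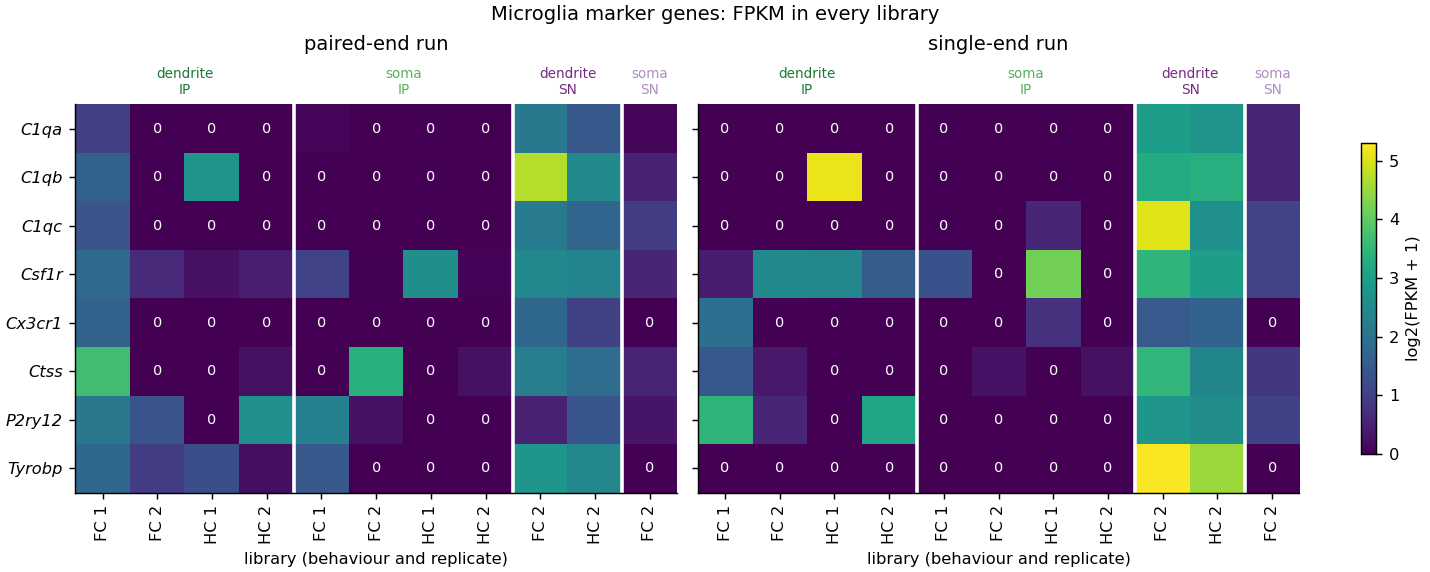
FPKM of the 8 microglia marker genes in every library, as log2(FPKM + 1), in the paired-end run (left) and the single-end run (right); columns are the libraries by group (IP, immunoprecipitate; SN, supernatant; FC, fear conditioned; HC, home cage) and a 0 marks a value listed at 0. The dendrite supernatants hold values above 0 for all 8 genes in both runs, while 56.25% of the values in immunoprecipitates are 0 in the paired-end run and 73.4% in the single-end run.

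Summed over the 8 genes, the paired-end FPKM came to 26.9 in the FC 1 dendrite immunoprecipitate and to between 3.05 and 7.35 in the other 3 dendrite immunoprecipitates. The 4 soma immunoprecipitates ran from 0.210 to 9.47. The sums were 49.2 in the FC 2 and 23.1 in the HC 2 dendrite supernatant, and 2.61 in the soma supernatant. The FC 1 dendrite immunoprecipitate thus lay between the dendrite supernatants, and the other 3 lay below both. With single ends all 4 lay below both: FC 1 had 15.0 and HC 1, the highest, 38.8 FPKM, against 113 and 60.5 FPKM in the FC 2 and HC 2 dendrite supernatants. In bulk RNA, fewer cells of a type and less RNA per cell cannot be told apart.

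Between the supernatants, the dendrite sum averaged 36.1 FPKM, against 2.61 FPKM in the soma, a ratio of 13.9. In the single-end table it averaged 86.7 FPKM in the dendrite, against 5.01 FPKM in the soma, a ratio of 17.3. Both dendrite supernatants exceeded the soma supernatant for 8 of the 8 genes in each table. The same held for 43.2% of the tested genes and for 32.7% of the genes above 0 in at least 1 library of the paired-end table, and for 34.7% of such genes in the single-end table. There was 1 soma supernatant, so this order has no replicate check on the soma side.

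By gene, the FC 2 and HC 2 dendrite supernatants were set over the soma supernatant. C1qa stood at 74.6 and 39.9 times in the paired-end table and at 14.4 and 12.1 times in the single-end table. C1qb stood at 57.1 and 10.9 times with paired ends and at 18.9 and 20.1 times with single ends, and C1qc at 3.69 and 2.44 times with paired ends and at 28.2 and 4.73 times with single ends. The size of these C1q ratios thus hung on the library and the run. Csf1r was steadier, at 9.44 and 8.87 times with paired ends and 9.12 and 6.17 times with single ends. Ctss stood at 8.25 and 5.85 times with paired ends and 12.6 and 5.47 times with single ends, and P2ry12 at 1.76 and 7.39 times, then 5.58 and 4.96 times. Cx3cr1 and Tyrobp were listed at 0 in the soma supernatant in both tables, so no ratio is given. In the paired-end run the C1qa value of the soma supernatant rested on an estimated 1.16 fragments.

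Marker lists of other glia moved the same way between the supernatants, and their part in the result was not tested. The 11 astrocyte markers summed to 404 and 320 FPKM in the FC 2 and HC 2 dendrite supernatants, against 20.8 FPKM in the soma supernatant, a ratio of means of 17.4, and all 11 were higher in both dendrite libraries. The 7 oligodendrocyte markers summed to 156 and 147 FPKM in those dendrite supernatants, against 9.51 FPKM in the soma supernatant, a ratio of 15.9, and all 7 were higher. The 8 markers of CA1 pyramidal neurons had a ratio of 2.62 and 2 of 8 were higher in both dendrite libraries. The 5 interneuron markers had a ratio of 0.837, yet 3 of 5 were higher in both dendrite libraries. Sst alone made up 90.5% of their sum in the soma supernatant, so that ratio does not describe the list. The 6 endothelial markers, low at a mean of 1.16 FPKM in the dendrite and 0.0260 FPKM in the soma supernatants, had a ratio of 44.5. All 6 were higher in both dendrite libraries. A list of 38 other microglia and myeloid genes had a ratio of 7.37. The ratio of 13.9 for the microglia genes was thus on the scale of those of the astrocyte and oligodendrocyte lists, and the shift was not particular to glia.

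**Figure D2:**
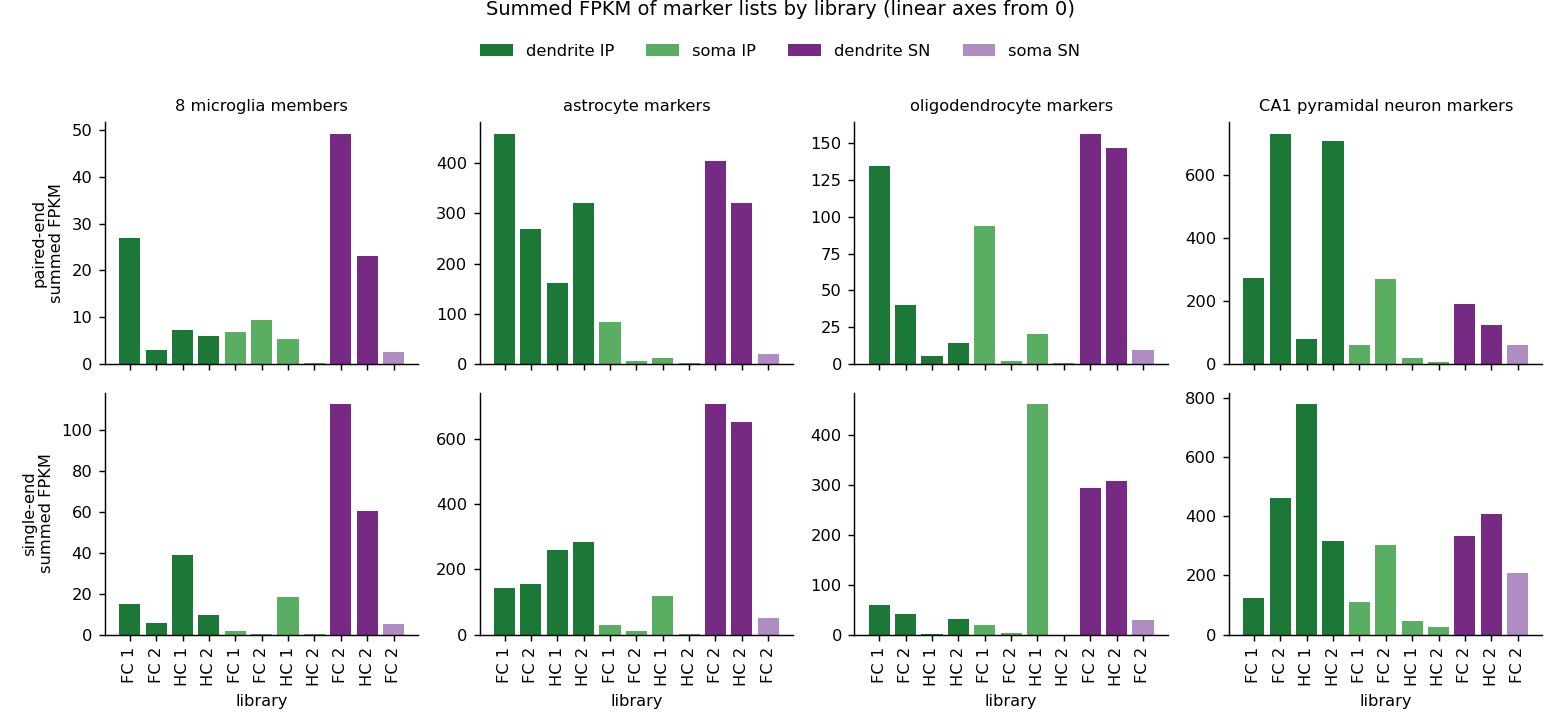
Summed FPKM of the 8 microglia genes and of the astrocyte, oligodendrocyte and CA1 pyramidal neuron lists in each library, in the paired-end (top) and single-end (bottom) table, on linear axes that start at 0 and differ between panels; each bar is 1 library. The 3 glial lists are higher in both dendrite supernatants than in the soma supernatant in both tables.

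The C1q subunits come from neighbouring genes and their protein chains assemble together, yet their transcripts were unequal in these libraries. C1qa was 0.992 FPKM in the FC 1 dendrite immunoprecipitate and 0.0587 FPKM in the FC 1 soma immunoprecipitate, and was listed at 0 in the other 6 immunoprecipitates. It was 3.38, 1.81 and 0.0454 FPKM in the FC 2 dendrite, HC 2 dendrite and FC 2 soma supernatants. Every dendrite immunoprecipitate lay below both dendrite supernatants, and the value in the FC 1 soma immunoprecipitate rested on an estimated 1.17 fragments.

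C1qb had 2.14 FPKM in FC 1 and 5.74 FPKM in HC 1 among the dendrite immunoprecipitates and was listed at 0 in the other 6 immunoprecipitates. In the supernatants it had 25.3 FPKM in FC 2 dendrite, 4.82 FPKM in HC 2 dendrite and 0.443 FPKM in FC 2 soma. The HC 1 dendrite immunoprecipitate lay between the dendrite supernatants, so the fractions overlapped. The same library was the only immunoprecipitate with C1qb above 0 in the single-end table, at 34.3 FPKM, above both dendrite supernatants there at 8.64 and 9.22 FPKM. C1qa and C1qc were listed at 0 in that library in both tables, so C1qb stood there without the other chains.

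C1qc had 1.63 FPKM in the FC 1 dendrite immunoprecipitate and was listed at 0 in the other 7 immunoprecipitates. It had 3.49, 2.30 and 0.944 FPKM in the FC 2 dendrite, HC 2 dendrite and FC 2 soma supernatants. All dendrite immunoprecipitates were below both dendrite supernatants. With single ends C1qc reached 32.0 FPKM in the FC 2 dendrite supernatant, against 6.74 FPKM for C1qa and 8.64 FPKM for C1qb in the same run, whereas in the paired-end run C1qb was the highest of the chains in that library.

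Among the receptors, Csf1r, a gene of 22 exons on the plus strand of chromosome 18, was the one found in every immunoprecipitate of the paired-end table. Its FPKM in FC 1, FC 2, HC 1 and HC 2 were 2.58, 0.544, 0.177 and 0.369 in the dendrite immunoprecipitates and 1.11, 0.0167, 5.26 and 0.0353 in the soma immunoprecipitates. The supernatants had 4.54, 4.26 and 0.480 FPKM in FC 2 dendrite, HC 2 dendrite and FC 2 soma. Dendrite immunoprecipitates lay below both dendrite supernatants, but the HC 1 soma immunoprecipitate exceeded every supernatant. That library was high again in the single-end table, at 17.1 FPKM, against 1.11 FPKM in the soma supernatant. Csf1r was above 0 in both runs in 6 of the 8 immunoprecipitates, more than any other of the 8 genes.

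Cx3cr1 had 2.23 FPKM in the FC 1 dendrite immunoprecipitate and was listed at 0 in the other 7 immunoprecipitates. It had 2.40 and 1.04 FPKM in the FC 2 and HC 2 dendrite supernatants and was listed at 0 in the soma supernatant. The single-end run gave 2.85 FPKM in the FC 1 dendrite immunoprecipitate, which there exceeded the 1.86 and 2.22 FPKM of the FC 2 and HC 2 dendrite supernatants. The single library with signal in the dendrite immunoprecipitates was therefore the same in both runs.

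P2ry12 was the only one of the 8 genes whose paired-end values in immunoprecipitates reached above both dendrite supernatants in 2 dendrite libraries. It had 3.28, 1.60, 0 and 5.31 FPKM in the FC 1, FC 2, HC 1 and HC 2 dendrite immunoprecipitates, and 3.88, 0.175, 0 and 0 FPKM in the corresponding soma immunoprecipitates. In the supernatants it had 0.403, 1.69 and 0.229 FPKM in FC 2 dendrite, HC 2 dendrite and FC 2 soma. FC 1 and HC 2 stood above both dendrite supernatants in the single-end table as well, at 10.1 and 7.63 FPKM, against 5.76 FPKM in FC 2 and 5.12 FPKM in HC 2. Med12l, within whose span P2ry12 lies, had 0.382 FPKM in FC 1 and 0.0881 FPKM in HC 2 of those dendrite immunoprecipitates. Med12l was higher, at 3.54 FPKM, in the FC 2 dendrite immunoprecipitate, where P2ry12 was 1.60 FPKM. In the FC 1 soma immunoprecipitate Med12l was 2.29 FPKM with paired ends and 12.3 FPKM with single ends. P2ry12 there was 3.88 FPKM in the paired-end and listed at 0 in the single-end run. The part of Med12l in the P2ry12 values was not tested.

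Tyrobp, the signalling adaptor, was above 0 in all 4 dendrite immunoprecipitates of the paired-end table, at 2.39, 0.909, 1.43 and 0.1499 FPKM in FC 1, FC 2, HC 1 and HC 2. In the soma immunoprecipitates it had 1.80 FPKM in FC 1 and was listed at 0 in the other 3. The supernatants had 5.85 and 4.46 FPKM in FC 2 and HC 2 dendrite, and Tyrobp was listed at 0 in the soma supernatant. All dendrite immunoprecipitates lay below both dendrite supernatants. In the single-end table all 8 immunoprecipitates were listed at 0, against 37.4 and 21.6 FPKM in the FC 2 and HC 2 dendrite supernatants.

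Ctss, the lysosomal protease, had 11.7 FPKM in the FC 1 and 0.184 FPKM in the HC 2 dendrite immunoprecipitate, and 9.27 FPKM in the FC 2 and 0.175 FPKM in the HC 2 soma immunoprecipitate. It was listed at 0 in the other 4 immunoprecipitates. The FC 2 dendrite, HC 2 dendrite and FC 2 soma supernatants had 3.82, 2.71 and 0.464 FPKM. Both high immunoprecipitates exceeded every supernatant in the paired-end run and neither did in the single-end run, where the FC 1 dendrite immunoprecipitate had 1.73 FPKM and the FC 2 soma immunoprecipitate 0.195 FPKM, against 10.2 and 4.43 FPKM in the dendrite supernatants and 0.809 FPKM in the soma supernatant.

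Across the 8 genes, every dendrite immunoprecipitate lay below both dendrite supernatants for 4 genes in the paired-end table, C1qa, C1qc, Csf1r and Tyrobp. The same held for 12.2% of the tested genes and for 13.8% of the genes above 0 in at least 1 library. In the single-end table it held for 5 genes, with Ctss added, against 33.7% of genes above 0 in at least 1 library. Without the FC 1 dendrite immunoprecipitate it held for 6 genes in the paired-end table, with Cx3cr1 and Ctss added, against 33% of genes above 0 in at least 1 library. That library had 12205 genes above 0, the most of any immunoprecipitate, and all 8 microglia genes above 0 in the paired-end run. Its log2(FPKM + 1) correlated with those of the supernatants at r of 0.465 to 0.693 across genes, against 0.0620 to 0.537 for the other immunoprecipitates; genes are not independent replicates. With single ends the ranges overlapped, at 0.412 to 0.491 for that library, against 0.219 to 0.674 for the others. In its single-end run C1qa, C1qb, C1qc and Tyrobp were listed at 0. The part of these features in the counts was not tested.

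The single-end runs were shallower, and the agreement between runs depended on the fraction. At the depth of its single-end run, the paired-end level of the 8 genes would have given an estimated 109 reads in the FC 1 dendrite immunoprecipitate, where 67.2 were found. In the FC 2 soma immunoprecipitate the estimate was 52.4 reads and 1.07 were found, and in the HC 1 soma immunoprecipitate 42.0 were estimated and 139.8 found. The FC 2 and HC 2 dendrite supernatants had estimates of 445 and 363 reads, with 939 and 787 found, and the soma supernatant 28.4, with 60.2 found. Over the 8 immunoprecipitates C1qa, C1qc and Tyrobp were above 0 in both runs in 0 libraries, C1qb and Cx3cr1 in 1, and Ctss and P2ry12 in 3. Material was amplified before sequencing without molecular identifiers, so reads are not independent molecules.

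**Figure D3:**
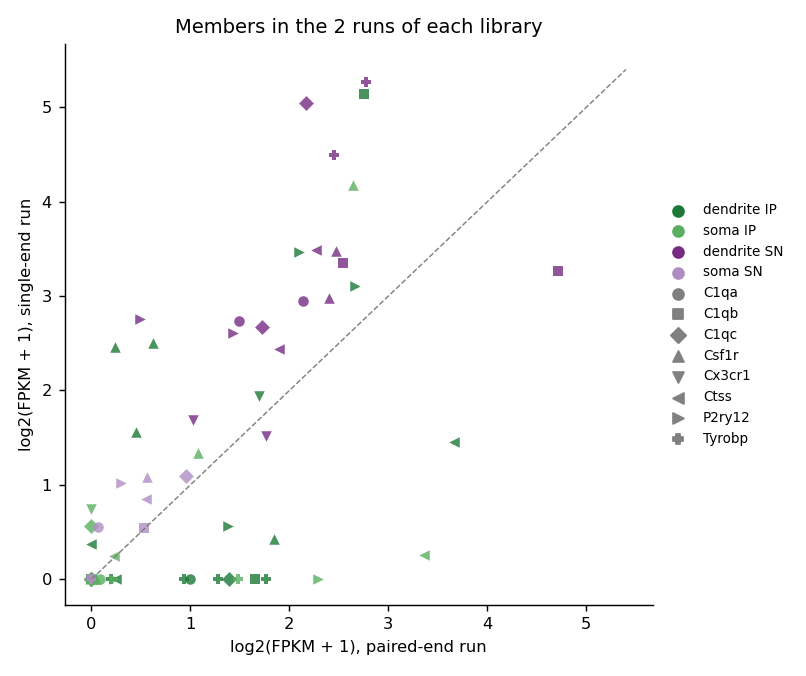
Each of the 8 genes in each library, as log2(FPKM + 1) in the paired-end run (horizontal) and the single-end run (vertical); colours are groups, symbols are genes and the dashed line marks equal values. Dendrite supernatants lie above 0 in both runs for every gene, while Tyrobp, above 0 in 4 dendrite immunoprecipitates of the paired-end run, is at 0 in all immunoprecipitates of the single-end run.

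The fractions were then compared across all genes with limma on log2(scaled FPKM + 1), a scale that understates the change of low genes, with Benjamini-Hochberg adjustment and a threshold of 0.05. A gene entered if its scaled FPKM averaged 1 or more, which C1qb, Csf1r, Ctss and Tyrobp passed in the fit of all 11 libraries. Immunoprecipitate minus supernatant in the dendrite was -2.32 ± 0.97 for C1qb, -1.58 ± 0.99 for Csf1r, -1.07 ± 0.96 for Ctss and -1.50 ± 0.82 for Tyrobp (log2 difference ± SE, 4 against 2 libraries), with adjusted p of 1 each in limma. The median of all tested genes was -0.11. No gene of the 4 was called, and 0.0681% of the 2938 tested genes were. Without adjustment 128 tested genes (4.36%) passed, and of the 4 only C1qb was among them. C1qb and Tyrobp passed the minimum only through the supernatants, with mean scaled FPKM of 0.871 and 0.552 over the 8 immunoprecipitates, against 2.73 and 1.10 over all 11 libraries, so a lower value in the immunoprecipitates is partly built into their selection.

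In the soma the same difference was -0.55 ± 1.30 for C1qb, 0.33 ± 1.32 for Csf1r, 0.66 ± 1.29 for Ctss and 0.45 ± 1.11 for Tyrobp, against a median of 0.18 for all tested genes, and 0 of the 4 and 0% of tested genes were called by limma. No gene of the 4 passed without adjustment, against 28 of all tested genes. Averaged over both locations the differences were -1.43 for C1qb, -0.63 for Csf1r, -0.20 for Ctss and -0.52 for Tyrobp, with 0 of the 4 called, against 0.034% of tested genes. The difference between the locations, dendrite minus soma in the immunoprecipitate minus supernatant difference, was -1.77 ± 1.63 for C1qb, -1.91 ± 1.65 for Csf1r, -1.73 ± 1.61 for Ctss and -1.95 ± 1.38 for Tyrobp. None of these was called by limma, 0% of tested genes were, and 12 of the tested genes passed without adjustment, none of the 4 among them.

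Dendrite minus soma in the supernatants came to 2.71 ± 1.42 for C1qb, 1.29 ± 1.44 for Csf1r, 1.61 ± 1.40 for Ctss and 2.44 ± 1.20 for Tyrobp, with adjusted p of 1.00 each in limma. The lone soma supernatant was assumed to vary like the other groups. The median of all tested genes was -0.03, and 0 of the 4 and 0% of tested genes were called; without adjustment 31 tested genes passed, none of the 4 among them. The 10 tested astrocyte markers were positive as well, with a median of 2.98, and the 6 tested oligodendrocyte markers had a median of 2.55.

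Between the immunoprecipitates of the locations no gene of the 8 separated. Dendrite and soma values overlapped, or tied at 0, for all 8 genes in both tables. Few genes separated at all: of those above 0 in at least 1 library, 1.08% did not overlap in the paired-end table. The lack of separation is thus not particular to the 8 genes. In the fit of the 8 immunoprecipitates, Csf1r, Ctss and P2ry12 passed the expression minimum. Dendrite minus soma was -0.58 ± 0.85 for Csf1r, -0.15 ± 0.89 for Ctss and 0.62 ± 0.83 for P2ry12, with adjusted p of 0.729, 0.933 and 0.707 in limma. The median of the 2928 tested genes was -0.30, so P2ry12 lay above it and Csf1r below. Limma called 0 of the 3 and 0% of tested genes, and without adjustment 139 tested genes passed, none of the 3 among them. The 8 tested astrocyte markers were all positive in this comparison, with a median of 3.10.

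Because the minimum left out 4 of the 8 genes, all were also fitted with no minimum, over 16618 genes in the fit of 11 libraries, most of them listed at 0 in many libraries. There, immunoprecipitate minus supernatant in the dendrite was lower for C1qa, by -1.40 ± 0.22 with an adjusted p of 0.0258, and for C1qc, by -1.45 ± 0.27 with an adjusted p of 0.0412, in limma. These 2 of 8 calls stand beside 2.26% of genes called in that fit. C1qa and C1qc were above 0 in only 2 and 1 of the 8 immunoprecipitates. Ties at 0 make the spread small, so these calls and the further ones of this fit are weak. Cx3cr1 had -0.91 ± 0.30 with an adjusted p of 0.236, and P2ry12 was the only one of the 8 on the other side, at 0.35 ± 0.78 with an adjusted p of 1. Over both locations C1qc was lower, by -1.18 with an adjusted p of 0.0167, which is 1 of 8 beside 7.35% of genes. Dendrite minus soma in the supernatants was higher for C1qa, by 1.58 ± 0.32 with an adjusted p of 0.0312, which is 1 of 8 beside 5.56% of genes. The soma side of that call is 1 library whose C1qa value rested on an estimated 1.16 fragments, so it has no replicate check. All 8 genes were positive in that supernatant comparison. Dendrite minus soma in the immunoprecipitates called 0 of the 8 and 0% of the 15213 genes fitted.

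In the single-end table limma called 1 of the 8 genes. Tyrobp was lower in the dendrite immunoprecipitates than in the dendrite supernatants, by -4.08 on the log2 scale with an adjusted p of 0.0416 in limma, beside 0.228% of the 4378 genes tested there. Tyrobp was listed at 0 in the 9 other libraries there and passed the minimum only through the dendrite supernatants, so it had to differ and the call is no support.

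**Figure D4:**
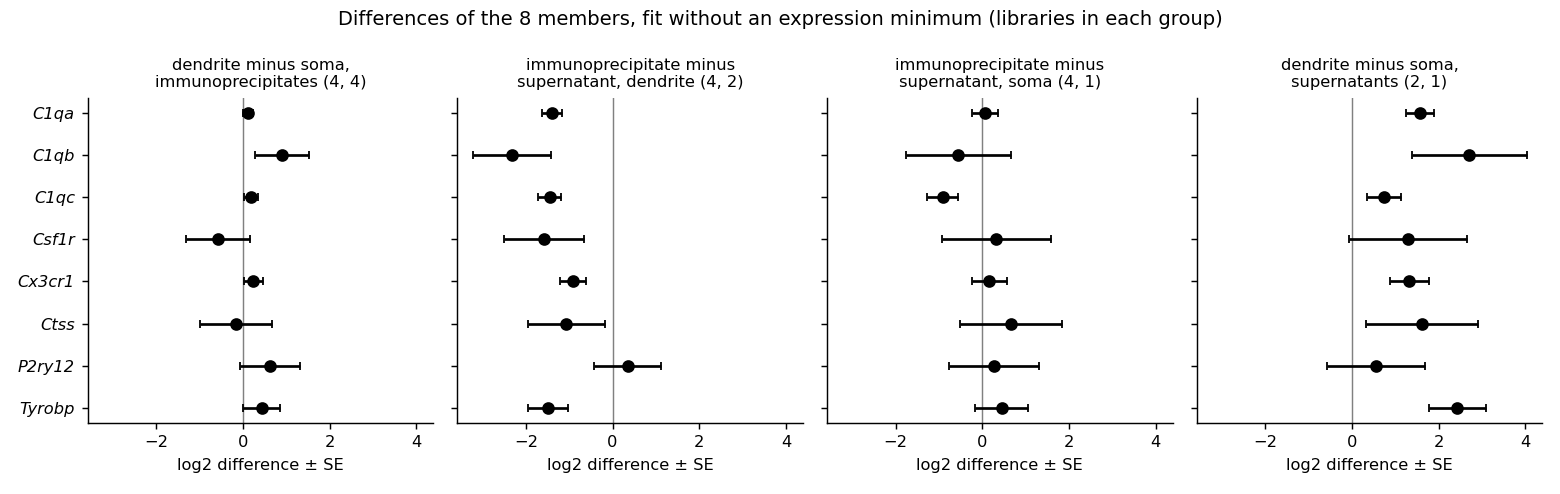
Log2 differences of the 8 genes with standard errors (bars) from limma on log2(scaled FPKM + 1) without an expression minimum, in the paired-end table; the numbers in brackets are the libraries in each group. In the dendrite 7 of the 8 genes lie below 0 for immunoprecipitate minus supernatant, with P2ry12 at 0.35, and all 8 lie above 0 for dendrite minus soma in the supernatants.

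Fear conditioning was compared with the home cage in the immunoprecipitates, with 2 libraries on each side. In the dendrite, FC minus HC was 0.43 ± 1.20 for Csf1r, 1.20 ± 1.26 for Ctss and -0.13 ± 1.17 for P2ry12, with 0 of the 3 and 0% of tested genes called by limma. In the soma it was -1.29 ± 1.20 for Csf1r, 0.98 ± 1.26 for Ctss and 1.06 ± 1.17 for P2ry12, again with 0 of the 3 and 0% of tested genes called. Without adjustment limma passed 96 tested genes in the dendrite and 217 in the soma, none of the 3 among them. Each behaviour had 1 dendrite supernatant, FC 2 and HC 2, so their values have no replicate check. There, 7 of the 8 genes were higher in the FC library with paired ends, beside 32.2% of all genes above 0 in at least 1 library. With single ends 6 of the 8 were, beside 33%. These shares count genes listed at 0 in both libraries as not higher, whereas the 8 genes were above 0 in both. The FC 2 library also had fewer genes above 0, 10785 against 13164 in HC 2 with paired ends. The counts of the 8 and the shares are therefore not directly comparable. C1qb, whose paired-end value was 25.3 FPKM in FC and 4.82 FPKM in HC, had 8.64 FPKM in FC and 9.22 FPKM in HC in the single-end run.

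Outside the coding part, Csf1r, Cx3cr1 and P2ry12 carried signal in the rest of the 3′ UTR, which the deposited tables give as a separate value. Csf1r had 6.34 FPKM there in the paired-end run of the FC 1 and 0.495 FPKM in the HC 2 dendrite immunoprecipitate and 0.0737 FPKM in the FC 1 soma immunoprecipitate, and was listed at 0 in the other 5 immunoprecipitates. It had 7.52, 10.2 and 2.09 FPKM in the FC 2 dendrite, HC 2 dendrite and FC 2 soma supernatants. The HC 1 soma immunoprecipitate, highest for the coding part at 5.26 FPKM, was thus listed at 0 in the 3′ UTR part. Cx3cr1 had 0.387 and 0.171 FPKM in the FC 1 and HC 1 dendrite immunoprecipitates, 0.0815 FPKM in the FC 1 soma immunoprecipitate, and 0.450, 1.02 and 0.347 FPKM in the same order of supernatants. P2ry12 had 0.191 and 0.238 FPKM in the FC 1 and HC 1 dendrite immunoprecipitates, 0.177 FPKM in the FC 1 soma immunoprecipitate and 0.197 FPKM in the HC 2 dendrite supernatant, and was listed at 0 elsewhere. The high coding value of P2ry12 in the HC 2 dendrite immunoprecipitate, 5.31 FPKM, thus had no counterpart there. With single ends this 3′ UTR part was listed at 0 in all 8 immunoprecipitates for each of the 3 genes, while Csf1r had 8.04, 9.30 and 0.824 FPKM in the FC 2 dendrite, HC 2 dendrite and FC 2 soma supernatants.

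Other microglia and myeloid genes were followed as a list of 38, of which 5 passed the expression minimum in the fit of 11 libraries. For immunoprecipitate minus supernatant in the dendrite, 2 of the 5 were positive and 3 negative, with a median of -0.33 and 0 called by limma. Of all tested genes 57.0% were negative there, so this split was near the share over all genes. Both dendrite supernatants exceeded the soma supernatant for 29 of the 38 genes in the paired-end and 28 of 38 in the single-end table. Summed, the list had 20.8 to 133 FPKM in the dendrite immunoprecipitates, against 23.3 and 61.9 FPKM in the dendrite supernatants, so the fractions overlapped. Single genes set the high sums. Ly86, an accessory protein of a toll-like receptor relative, was 128.5 FPKM in the FC 2 dendrite immunoprecipitate, against 0.873 and 0.778 FPKM in the FC 2 and HC 2 dendrite supernatants; its single-end value in that immunoprecipitate was 2.29 FPKM. P2ry13, a purinergic receptor close to P2ry12 in sequence, had at most 1.41 FPKM in the dendrite immunoprecipitates, against 10.7 and 0.801 FPKM in the FC 2 and HC 2 dendrite supernatants. Lgmn, the lysosomal protease legumain, had 20.2 FPKM in the HC 1 dendrite immunoprecipitate, against 13.8 and 1.68 FPKM in the FC 2 and HC 2 dendrite supernatants. With single ends it had 0.304 FPKM in that immunoprecipitate, against 2.67 and 2.85 FPKM in those supernatants.

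Complement genes beyond C1q were scarce: of 15 genes 0 passed the minimum, and both dendrite supernatants exceeded the soma supernatant for 5 of 15. C4b, which acts directly after C1q in the cascade, had at most 0.230 FPKM in the dendrite immunoprecipitates, against 0.664 and 0.254 FPKM in the FC 2 and HC 2 dendrite supernatants.

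Among 15 ligands and signalling partners, 9 passed the minimum in the fit of 11 libraries. For immunoprecipitate minus supernatant in the dendrite, 2 were positive and 7 negative, with a median of -0.90 and 0 called by limma. Over all tested genes 57.0% were negative, with a median of -0.11. Ctsd, the lysosomal protease cathepsin D, had 1.40 to 24.1 FPKM in the dendrite immunoprecipitates, against 40.2 and 20.5 FPKM in the FC 2 and HC 2 dendrite supernatants. Cst3, an inhibitor of cathepsins such as Ctss, had up to 16.1 FPKM in the dendrite immunoprecipitates, against 9.32 and 15.7 FPKM in the FC 2 and HC 2 dendrite supernatants. Gnai2, a subunit of the inhibitory G proteins to which P2ry12 and Cx3cr1 couple, reached 218 FPKM in the FC 2 dendrite immunoprecipitate, against 10.1 and 5.73 FPKM in the FC 2 and HC 2 dendrite supernatants. Its single-end value in that immunoprecipitate was 11.4 FPKM, against 12.6 and 18.9 FPKM in those supernatants. Cd47, a signal that restrains phagocytes, had 43.5 FPKM in the FC 1 soma immunoprecipitate, against 1.56 FPKM in the soma supernatant; with single ends it had 0.211 FPKM in that immunoprecipitate, against 2.27 FPKM in the soma supernatant.

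Markers of blood cells and of perivascular macrophages, which share genes with microglia, varied by library. Hbb-b1, a haemoglobin chain, had 164 FPKM in the HC 1 dendrite immunoprecipitate, the library in which C1qb stood without the other chains, and 0.762, 11.2 and 2.02 FPKM in FC 1, FC 2 and HC 2, against 14.9 and 0.487 FPKM in the FC 2 and HC 2 dendrite supernatants. Its single-end value in that library was 0.959 FPKM. Mrc1, a receptor of perivascular macrophages, had at most 1.20 FPKM in the dendrite immunoprecipitates, against 0.327 and 0.0633 FPKM in the FC 2 and HC 2 dendrite supernatants, and was listed at 0 in all soma immunoprecipitates. Of the list's 11 genes with a row, 5 were higher in both dendrite supernatants than in the soma supernatant. Their part in the microglia values was not tested.

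Dendrite immunoprecipitates were then set beside dendrite supernatants for the glial lists. The mean sum of the 8 genes was 0.300 times that of the dendrite supernatants in the paired-end table and 0.199 times in the single-end table. Leaving out each dendrite immunoprecipitate in turn gave 0.151 to 0.372 times with paired ends and 0.116 to 0.244 times with single ends. The lowest values came without the library of the highest sum, FC 1 with paired and HC 1 with single ends. With all libraries, the oligodendrocyte list had 0.320 times with paired and 0.109 times with single ends. In the same order the astrocyte list had 0.837 and 0.309 times, and the CA1 pyramidal neuron list 2.85 and 1.14 times. The 38 other microglia and myeloid genes had 1.20 and 0.252 times, so with paired ends they did not share the low ratio of the 8 genes. Ly86 made up 96.9% of their paired-end sum in the FC 2 dendrite immunoprecipitate. In the same comparison by limma 10 of 10 tested astrocyte markers and 6 of 6 tested oligodendrocyte markers were negative, with 0 called in each. Of all tested genes 57.0% were negative there. The differences between lists were not tested. In the soma the mean sum of the microglia genes in the immunoprecipitates was 2.09 times that of the supernatant in the paired-end and 1.01 times in the single-end table. The single-end value rested on the HC 1 library, 93.6% of whose sum was Csf1r. It was 0.127 times without that library and 1.24 to 1.33 times when another soma immunoprecipitate was left out.

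The genes most alike in pattern were those whose log2(scaled FPKM + 1) over the 8 immunoprecipitates correlated best with the mean of the 8 microglia genes, among 2925 candidates. They were Rbbp5, Dhx29, Bmac, Unc5c and GU332589, with Pearson r of 0.95, 0.93, 0.93, 0.92 and 0.91. Over all candidates the median was -0.03 and the 99th percentile 0.89, so these values, picked as the highest, are high by selection. With single ends the same correlations were -0.03, 0.41, -0.28, 0.26 and -0.16. All 5 genes were highest in the FC 1 dendrite immunoprecipitate, for example 31.0 FPKM for Rbbp5, against at most 0.994 FPKM in any other immunoprecipitate. Without that library and the HC 2 soma immunoprecipitate, the 2 farthest from the median of the microglia genes, r over the remaining 6 was 0.83, 0.53, 0.61, 0.51 and 0.60. The libraries share depth and amplification, and no p is given for these correlations.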

How the data were processed

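RNA from tagged ribosomes and from unbound supernatants of CA1 dissections went through amplification (Nugen Ovation RNA-Seq System V2) and was made into Illumina libraries, per the labels' protocols. Tools listed in the submitters' processing notes are Cufflinks 2.0.2, STAR 2.1.1d and CASAVA 1.9, with build mm9; the sources used here do not give settings. The authors deposited FPKM values, per the file headers, in a paired-end and a single-end table with separate columns for the coding part and the rest of the 3′ UTR. FPKM estimated for short or low genes rest on few fragments, and no counting interval was computed. All coordinates of genes are mm9 from the deposited annotation.

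Depth was estimated from the spacing of low FPKM in genes with 1 transcript of at least 1500 bases; 86.5 to 95.1% of such values lay within 0.15 reads of 1, 2 or 3 reads. Paired-end libraries were scaled by median ratios to a geometric mean profile, taken from 870 genes that no immunoprecipitate listed at 0 (8 libraries) and from 765 such genes in the fit of 11. Testing required a scaled mean of 1 or more and was done with limma 3.58.1 in R 4.3.3 on log2(scaled FPKM + 1), with a trended spread, two-sided, adjusted over all tested genes. The fit of 8 immunoprecipitates had 4 groups (behaviour by location); that of 11 libraries had location by fraction with behaviour as a covariate. Separation of groups was counted on FPKM as deposited, a count and its alternatives chosen after seeing the data. The fits were checked on simulated data.

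The 8 genes are always named, as is Camk2a; of each other list, the 4 with the highest mean FPKM were eligible, and of the genes most alike the first 5. Some eligible genes are not reported here. Members, lists and tests were chosen with earlier results of these data known. Spi1 was read under its older symbol Sfpi1, and Hba-a1 had no row. Alternatives covered the scaling, pseudocount, expression minimum, single-end table, 3′ UTR part, a replicate block and leaving out each library. Python 3.11.15 was used for the tables and figures.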

Additional observations from a re-analysis of the deposited data

Results flagged for a closer look

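Within the groups of 4 immunoprecipitates of the paired-end table, 9 of 13 gene and location groups with any value above 0 had a sample far from the others by Dixon's ratio. Chance flags about 1 in 20 groups, and a group with 3 values at or near 0 is flagged readily. In the dendrite immunoprecipitates the far sample was FC 1 each time, with 0.992 FPKM for C1qa, 1.63 FPKM for C1qc, 2.58 FPKM for Csf1r, 2.23 FPKM for Cx3cr1 and 11.7 FPKM for Ctss. In the soma immunoprecipitates it was FC 1 with 0.0587 FPKM for C1qa, 3.88 FPKM for P2ry12 and 1.80 FPKM for Tyrobp, and FC 2 with 9.27 FPKM for Ctss. In the single-end run of the FC 1 dendrite immunoprecipitate the values were 0 for C1qa and C1qc, 0.348 FPKM for Csf1r, 2.85 FPKM for Cx3cr1 and 1.73 FPKM for Ctss. In the single-end run of the soma libraries C1qa, P2ry12 and Tyrobp were listed at 0 in FC 1, and Ctss had 0.195 FPKM in FC 2.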

How the results depend on the processing

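Of the alternative values of single genes 456 kept their direction and their side of the threshold. Another 22 changed sign or, for P2ry12 in the soma, came to exactly 0. The 1 value that newly passed was Tyrobp in the dendrite, at -4.08 in the single-end table. Tyrobp passed the minimum there only through the dendrite supernatants. All sign changes were of uncalled differences (log2), and the cause was not tested. For Ctss, dendrite minus soma in immunoprecipitates was 0.079 with FPKM as deposited, 0.045 when scaled by the sum without the top 10 genes, and -0.80 to 0.48 leaving out single libraries; immunoprecipitate minus supernatant over both locations was 0.012 with a pseudocount of 5 and -0.58 to 0.16 leaving out single libraries, and in the soma -0.45 in the single-end table. For P2ry12, FC minus HC in the dendrite was 0.85 with a pseudocount of 0.1, 0.41 as deposited, 0.22 with the sum scaling, 0.32 in the single-end table and -1.40 to 0.042 leaving out single libraries; in the soma it was 0 in the single-end table. For Csf1r, the single-end table gave 0.20 for dendrite minus soma in immunoprecipitates and -0.76 for FC minus HC in the dendrite. Its immunoprecipitate minus supernatant difference in the soma was -0.093 with a pseudocount of 0.1, -0.088 in the single-end table, -1.17 in the 3′ UTR part, -0.089 with the replicate block and -0.18 to 0.81 leaving out single libraries.

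Counts of called genes moved too. With no expression minimum they were 1222 over both locations, 376 in the dendrite and 935 in the soma for immunoprecipitate minus supernatant, 924 between supernatants and 739 for the difference between locations, with 1, 2, 0, 1 and 0 of the 8 genes among them. In the single-end table they were 19, 10, 10, 6 and 5, with 1 of the 8, and 1 between immunoprecipitates. With a pseudocount of 0.1 the first 3 were 2, 1 and 1; with a pseudocount of 5, 0 over both locations and 1 in the dendrite; with a minimum of 5, they were 3, 1 and 1; in the 3′ UTR part 0, 0 and 1. As deposited, 1 gene was called for dendrite minus soma and 1 for FC minus HC in soma immunoprecipitates. Leaving out single libraries gave 0 to 135 genes for FC minus HC in the soma, with 135 without FC 1, 121 without FC 2 and 102 without HC 2 of the soma immunoprecipitates, and 0 to 2 for immunoprecipitate minus supernatant in the dendrite, with 0 without the HC 2 dendrite supernatant. None of the 8 genes was called in any leave-one-out fit.

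Deviations of same-numbered dendrite and soma immunoprecipitates from their group means correlated across genes at 0.056 in FC and -0.00098 in HC. With 2 libraries in each group this is 1 value per behaviour. It cannot show whether same-numbered libraries came from the same animals. With the replicate block 1 gene was called between immunoprecipitates and 1 for immunoprecipitate minus supernatant in the dendrite, none of them among the 8. Depth limits what a 0 shows.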
